A study of Drosophila melanogaster with 2 samples.

Results

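The cyclins, their kinases and the factors that switch them on or off were examined as a set of 10 Drosophila melanogaster genes: E2f1, CycE, Cdk2, CycA, CycB, CycD, Cdk1, Cdk4, stg and dap. Their probes were chosen as every spot whose platform annotation gave exactly 1 gene and that gene was a member. This found 11 of the 15744 spots on the array, for 6 of the 10 genes. CycE and Cdk4 had 3 probes each, CycB had 2, and E2f1, Cdk2 and CycD had 1 each. No probe was matched by gene ID to CycA, Cdk1, stg or dap in the annotation used. These 4 genes, among them the mitotic kinase and its activating phosphatase, therefore have no value here. Of the 11 probes, 8 had a value on both arrays, 2 on 1 array and 1 on neither.

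The study asked whether a raised level of the splicing factor B52, an SR protein, changes the expression of other genes. Larvae of the cross GMR X GFP-B52, which carry B52 joined to green fluorescent protein (GFP), were compared with control larvae of the cross GMR X GFP-NLS, which carry GFP with a nuclear localisation signal. Both groups thus carry GMR and a GFP transgene, and GMR denotes a promoter of the developing eye, so most cells of a larva lie outside its known domain. The stage is given as larvae, without age, tissue or the number of animals. Each of 2 two-colour arrays held RNA of both groups: on replicate 1 the B52 RNA was labelled with Cy5 and the control RNA with Cy3, and on replicate 2 the dyes were exchanged. The labels call the control RNA of replicate 1 cytoplasmic and all other RNA polyA. They do not say whether the arrays held separate RNA extracts, so every spread below is a spread between arrays and may be technical. A log ratio gives no level, so the tissue could not be checked through its markers.

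Progress through the cell cycle is driven by kinases that work only when bound to a cyclin. CycD with Cdk4 promotes growth and entry into the cycle, CycE with Cdk2 starts DNA replication, and CycA and CycB with Cdk1 drive mitosis. E2f1 is the transcription factor that turns on CycE and the replication genes, stg removes an inhibitory phosphate from Cdk1, and dap inhibits CycE with Cdk2. In larvae, mitotic divisions take place mainly in imaginal discs and brain, while most other tissues grow by endocycles, which alternate replication and gaps without division. Behind the furrow of the eye disc, where GMR acts, cells pass a last synchronous round of division and then leave the cycle.

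Neither the direction nor the log base of the deposited ratios is stated. Each result is therefore given in both possible readings as B52 over control. The channel reading takes the deposited sign on both arrays as channel 2, B52, over channel 1, control. The dye reading takes the deposited value as Cy5 over Cy3, so the sign of replicate 2 is turned. A positive value is higher in B52 larvae in the reading named. Since the readings differ in 1 sign, the mean in one is fixed by the difference between arrays in the other, and a gene with a clear mean in one has a wide spread in the other.

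A raised level of B52 RNA, the premise of the comparison, was not seen on these arrays. Over the 5 probes of B52 the deposited log ratio averaged -0.136 on replicate 1 and 0.0424 on replicate 2. This gives -0.0892 ± 0.0662 when read by dye, or -0.0468 ± 0.126 when read by channel (SD, n = 2 arrays). The probes differed in sign, with 2 of 5 means positive by dye and 1 of 5 by channel. Probe 13309, at -0.217 on replicate 1 and 0.6 on replicate 2, set the replicate 2 mean: without it the other 4 probes averaged -0.097 there, and the means were -0.0094 by dye and -0.11 by channel. Which part of the B52 transcript these probes cover is not stated, so the transgene is not measured apart from the gene itself. Dye, array and the sign of replicate 2 cannot be told apart, since each dye orientation was hybridised once.

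In the dye reading E2f1 and the kinase Cdk2 had negative log ratios on both arrays, the cyclins CycE and CycB had positive ones, and CycD and Cdk4 differed in sign between arrays. Read by channel, the means of all 6 genes lay between -0.0708 and 0.08. No member passed the test in either reading. Limma with Benjamini-Hochberg adjustment over 12500 probes called 0 of the 8 member probes read by channel (background 0% of all probes), as well as 0 of 8 read by dye (background 0%). At an unadjusted p under 0.05 it gave 0 of 8 member probes in the channel reading, against 6.52% of all probes, and 1 of 8 in the dye reading, against 6% of all probes. With robust variance estimation in limma, and with an ordinary test of each probe, 0 member probes again passed after adjustment in both readings.

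**Figure D1:**
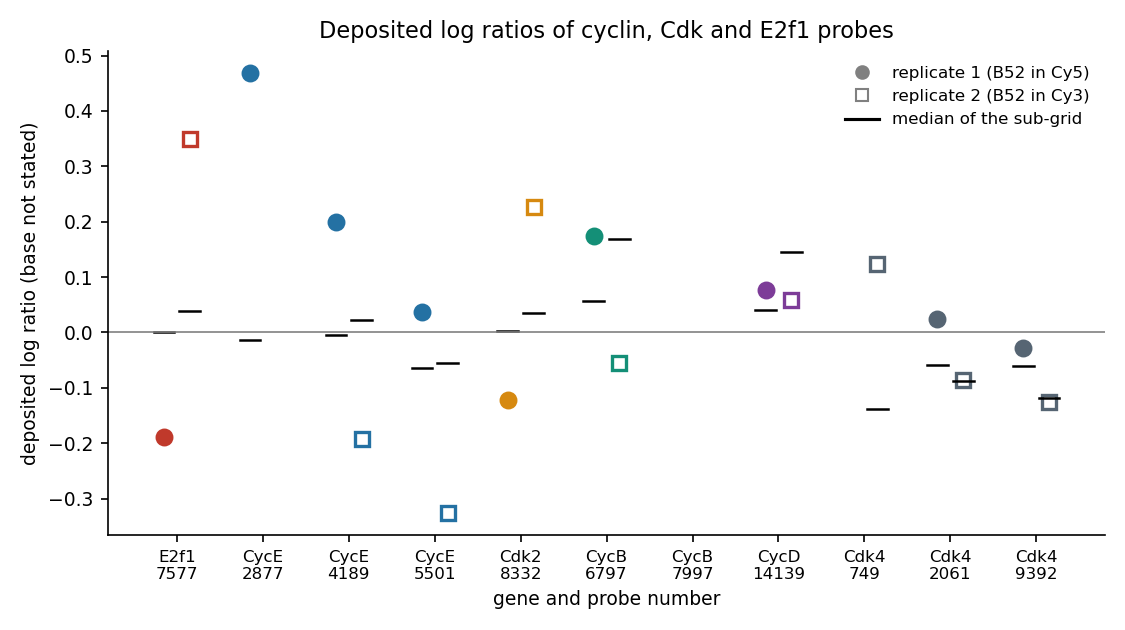
Deposited log ratio (vertical axis, base not stated) of each of the 11 member probes (horizontal axis, gene and probe number). Filled circles are replicate 1, open squares replicate 2, and black bars the median of the sub-grid in which the spot was printed. E2f1 and Cdk2 lie below 0 on replicate 1 and above 0 on replicate 2, and CycE and CycB lie the other way round. CycB probe 7997 had no value.

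E2f1, the transcription factor of the set, had deposited log ratios of -0.189 on replicate 1 and 0.349 on replicate 2. The signs of the arrays were opposite, so E2f1 was lower in B52 larvae on both arrays only in the dye reading. Its mean in that reading was -0.27 ± 0.11 (SD, n = 2 arrays), 1.86-fold lower if the values are log10 and 1.2-fold lower if they are log2. It had the largest size of the 8 probes. The 95% interval from limma ran from -0.51 to -0.028, with an unadjusted p of 0.0337 and an adjusted p of 0.758. Of all probes, 5.67% had a mean of larger size in that reading. In the channel reading E2f1 averaged 0.08 ± 0.38 (SD, n = 2 arrays; limma adjusted p = 0.967), an interval from -0.31 to 0.47.

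CycE, the cyclin that starts replication and a target of E2f1, had probes with values on both arrays at 2 positions. Probe 4189 had 0.199 on replicate 1 and -0.192 on replicate 2, nearly the same size with opposite sign. Probe 5501 had 0.036 on replicate 1 and -0.326 on replicate 2. Both probes were therefore positive on each array in the dye reading, the opposite direction to E2f1. Their gene mean was 0.19 ± 0.1 in the dye reading (SD, n = 2 arrays), 1.54-fold higher if log10 and 1.14-fold higher if log2, and -0.0708 ± 0.266 in the channel reading. The limma adjusted p was 0.937 for probe 4189 and 0.999 for probe 5501 in the dye reading. The third CycE probe, 2877, had 0.469 on replicate 1 and no value on replicate 2. It was the largest deposited value of any member probe, and it has no second array to set beside it. With it included, the gene mean of CycE was 0.25 by dye and -0.0122 by channel.

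Cdk2, the kinase partner of CycE, had -0.122 on replicate 1 and 0.226 on replicate 2. Its array pattern was that of E2f1 and not that of its own cyclin. The mean was -0.17 ± 0.07 in the dye reading (SD, n = 2 arrays), 1.49-fold lower if log10 and 1.13-fold lower if log2; the limma adjusted p was 0.999, with an interval from -0.41 to 0.06. Read by channel it was 0.05 ± 0.25 (limma adjusted p = 0.971).

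CycB, the mitotic cyclin of the set that was measured, had 0.175 on replicate 1 and -0.055 on replicate 2 from probe 6797. Its mean was 0.12 ± 0.08 in the dye reading (SD, n = 2 arrays; limma adjusted p = 0.999) and 0.06 ± 0.16 in the channel reading (limma adjusted p = 0.965). The layout repeats in 24 sub-grids, read from the numbering of the spots, and their medians differ. Probe 6797 lay in a sub-grid with a median of 0.168 on replicate 2, and its value there was 0.223 below that median. With sub-grid medians subtracted its channel-reading mean was -0.052 and its dye-reading mean 0.171. The sign in the channel reading thus turned under this step, while that in the dye reading did not. The sub-grid median on replicate 1 was 0.056, of the same sign as on replicate 2. The step therefore moves the channel mean more than the dye mean, and does not show the dye mean to be sturdier.

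CycD and Cdk4, the pair that promotes growth, had the smallest dye-reading values. CycD had 0.077 on replicate 1 and 0.058 on replicate 2, positive on both arrays in the channel reading, where its mean was 0.07 ± 0.01 (SD, n = 2 arrays; limma adjusted p = 0.953). In the dye reading it was 0.0095 ± 0.0955. The CycD spot lay in a sub-grid with medians of 0.0405 on replicate 1 and 0.145 on replicate 2. Relative to these CycD was at 0.0365 and -0.087, and its channel-reading mean was then -0.0253. The agreement of the arrays on CycD in the channel reading was therefore no longer seen after this step.

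Cdk4 had 2 probes measured on both arrays. Probe 2061 had 0.025 on replicate 1 and -0.086 on replicate 2, and probe 9392 had -0.028 and -0.126. The values on replicate 2 were close to the medians of their sub-grids, -0.0875 and -0.119. The gene mean was -0.0538 ± 0.0739 in the channel reading, with 0.0523 ± 0.076 in the dye reading (SD, n = 2 arrays). With sub-grid medians subtracted the channel-reading mean was 0.0274, of the opposite sign. With probes measured on either array included, the means were -0.0156 by channel and 0.0141 by dye. The third probe, 749, had 0.123 on replicate 2, no value on replicate 1, and the opposite sign on replicate 2 to the other Cdk4 probes.

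**Figure D2:**
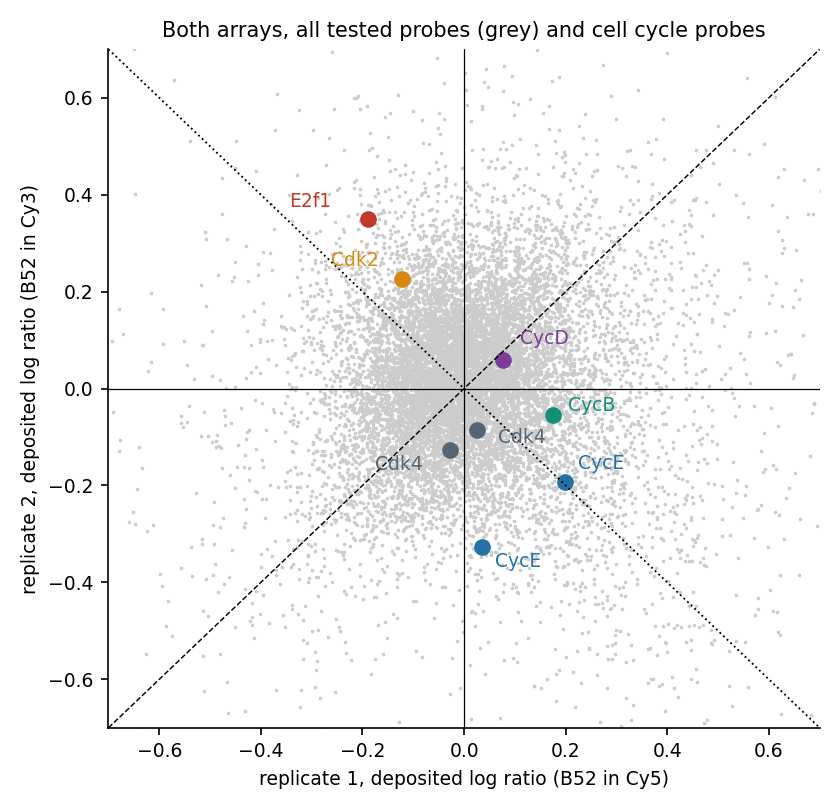
Deposited log ratio on replicate 1 (horizontal) against replicate 2 (vertical) for the 12500 probes measured on both arrays (grey) and the 8 member probes (coloured, labelled by gene). Along the dashed diagonal both arrays have equal values when read by channel, and along the dotted diagonal when read by dye. E2f1 and Cdk2 lie at upper left and CycE and CycB at lower right. Grey probes beyond 0.7 in size on an array lie outside the plot.

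By gene, 4 of the 6 measured members had the same sign on both arrays in the dye reading: CycE and CycB were positive and E2f1 and Cdk2 negative. Of all 10594 measured genes, 21.9% were positive and 25.6% negative on both arrays in that reading. In the channel reading CycD was positive on both and Cdk4 negative on both, against 28.1% and 24.3% of all genes. Cdk4 was only at -0.0015 on replicate 1, the mean of 2 probes with opposite signs there. The member counts are small, and the 2 positive and 2 negative genes of the dye reading give no shift in 1 direction. The median over the 6 genes was 0.0309 in the dye reading, beside -0.0075 over all genes, and 0.056 in the channel reading, beside 0.0085. On replicate 2 alone it was -0.0015 read by dye and 0.0015 read by channel, and with sub-grid medians subtracted the channel-reading median was 0.0011. The deposited values of the arrays were almost unrelated over all 12500 probes (Pearson r = 0.0095, across probes that share the arrays), so the correlation does not tell which reading holds.

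No member probe had the same sign and a size of 0.301 or more on both arrays, which is 2-fold if the values are log10. This holds for 0 of 8 in the channel reading, against 1.53% of all probes, and 0 of 8 in the dye reading, against 1.62%. The half-widths of the limma 95% intervals were 0.213 to 0.392 read by channel, or 0.229 to 0.266 read by dye. Differences smaller than these could not be told from 0 with 2 arrays. The intervals are not adjusted for the number of probes, so larger differences could also fail the adjusted test. E2f1, whose dye-reading interval left out 0, had a limma adjusted p of 0.758.

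**Figure D3:**
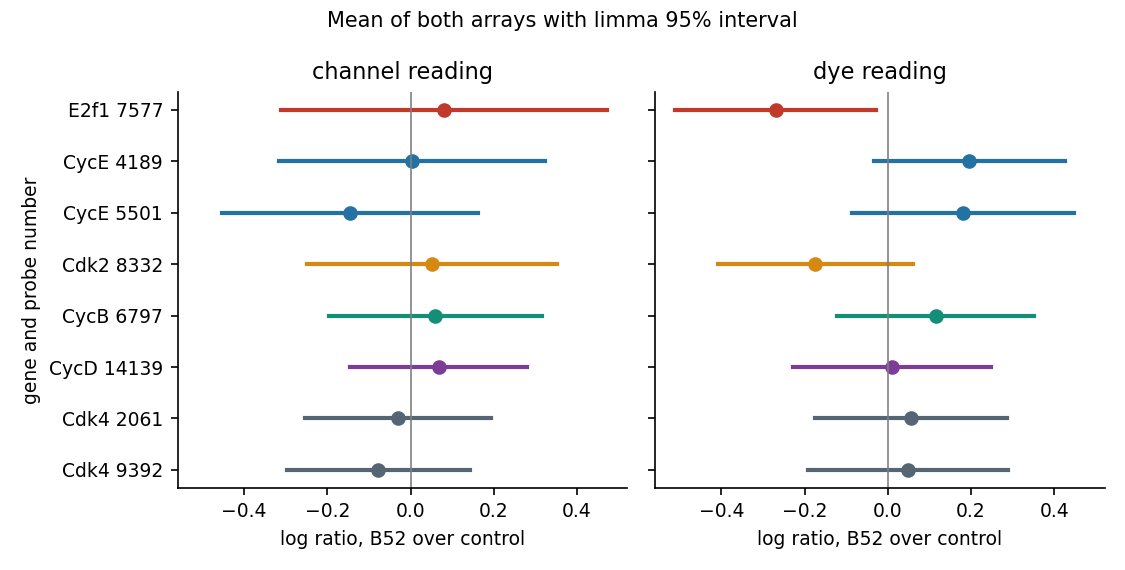
Mean log ratio of both arrays (points, B52 over control, base not stated) with limma 95% intervals (bars) for the 8 member probes in the channel reading (left) and the dye reading (right). All intervals in the channel reading span 0. In the dye reading 7 of 8 do, and that of E2f1 runs from -0.51 to -0.028 before any adjustment for the number of probes.

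Probes of the same gene on the same array differed. Over the genes with several probes, pairs of probes had a Pearson r of 0.348 on replicate 1 (192 pairs) and 0.194 on replicate 2 (203 pairs) when they were 1312 positions apart, the most common distance. At other distances r was 0.193 (915 pairs) and 0.119 (925 pairs). These pairs share the array and some share a gene, so r is a description. The median absolute difference within a pair lay between 0.123 and 0.177 over both arrays and both kinds of distance. This is a span of medians, and many single pairs differ by more or by less. The CycE probes 4189 and 5501, which were 1312 positions apart, differed by 0.163 on replicate 1 and 0.134 on replicate 2. The median at that distance was 0.123 on replicate 1 and 0.149 on replicate 2. The pair thus lay above its median on replicate 1 and below it on replicate 2. The Cdk4 probes 2061 and 9392 differed by 0.053 and 0.04, below the whole span of medians. The Cdk4 probe 749, with a value on replicate 2 alone, differed there by 0.209 from probe 2061 and by 0.249 from probe 9392, above these medians. Probe 2877 of CycE differed from 5501 by 0.433 on replicate 1. A gene with 1 probe, such as E2f1 or Cdk2, has no such check.

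Genes that work with these cyclins and kinases were grouped in 4 lists, and limma called 0 of their probes after adjustment over all probes in either reading. The list of partners at the start of replication held the retinoblastoma relatives Rbf and Rbf2, which hold E2F factors in check, and ago, which marks CycE for destruction. Of its 10 measured genes, 2 were positive and 2 negative on both arrays in the dye reading, while 2 were positive and 3 negative in the channel reading. These are near the shares over all genes, 21.9% positive and 25.6% negative by dye and 28.1% and 24.3% by channel. Its median was 0.0298 by dye, with 0.0277 by channel. The gene ago had a dye-reading mean of 0.26 ± 0.22 and Cul1, a scaffold of ubiquitin ligases, 0.21 ± 0.11, while CycH, the cyclin partner of Cdk7, had -0.17 ± 0.11 and Rbf2 -0.09 ± 0.005 (SD, n = 2 arrays). Read by channel, CycJ had 0.32 ± 0.2 and Cdk7 -0.13 ± 0.13.

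The replication genes, many of them known targets of E2F factors, were more often negative than positive in the dye reading, without passing the test. Of 17 measured genes, 12 were negative and 0 positive on both arrays and 5 differed in sign between arrays, beside 25.6% and 21.9% of all genes, and the median was -0.079 against -0.0075 over all genes. On single arrays 16 of the 17 were negative on replicate 1, beside 5285 of all 10594 genes, and 13 were negative on replicate 2, beside 5697. The array medians were -0.088 on replicate 1 and -0.087 on replicate 2 in that reading. The initiation factor Cdc45 had -0.12 ± 0.02, and RnrL, the large subunit of ribonucleotide reductase, -0.1 ± 0.02 (SD, n = 2 arrays). CycE, which is also a target of E2f1, was positive. In the channel reading 4 genes were negative and 1 positive on both arrays, beside 24.3% and 28.1% of all genes, and the median was -0.0125. There the origin recognition genes Orc2, at -0.23 ± 0.02, and Orc1, at -0.19 ± 0.01, had nearly equal values on both arrays. Their dye-reading means were 0.013 and 0.005. The genes named from this list were picked for the same sign on both arrays, which favours such small spreads.

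The genes of mitosis were also more often negative than positive in the dye reading, without passing the test, while CycB was positive. Among the 10 measured mitotic control partners 5 were negative and 0 positive on both arrays, beside 25.6% negative and 21.9% positive over all genes, with a median of -0.101. The kinase subunit Cks30A had -0.18 ± 0.02 and the checkpoint kinase lok -0.17 ± 0.005. Of the 15 genes of the mitotic apparatus 7 were negative and 1 positive, with a median of -0.0605. The positive gene was Sse, which encodes separase, at 0.15 ± 0.04, and ncd, a kinesin of the spindle, had -0.08 ± 0.02 (SD, n = 2 arrays). On replicate 1 alone 8 of the 10 control partners and 12 of the 15 apparatus genes were negative, beside 5285 of all 10594 genes. On replicate 2 alone these counts were 7 and 9, beside 5697, so the apparatus was nearer to all genes there. Its array medians were -0.047 on replicate 1 and -0.042 on replicate 2. Read by channel, 3 control partners were negative and 2 positive on both arrays, and 5 genes of the apparatus were negative and 2 positive, beside 24.3% negative and 28.1% positive over all genes. Those medians were 0.0058 for the control partners, where grp, a checkpoint kinase, had 0.19 ± 0.13, and -0.017 for the apparatus. CycB3, another mitotic cyclin, named after its values were seen, had deposited values of -0.018 and 0.423 and a dye-reading mean of -0.22 ± 0.29, the opposite direction to CycB. The negative median of cell cycle genes in the dye reading was already known from earlier work on these arrays and is not independent of it.

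**Figure D4:**
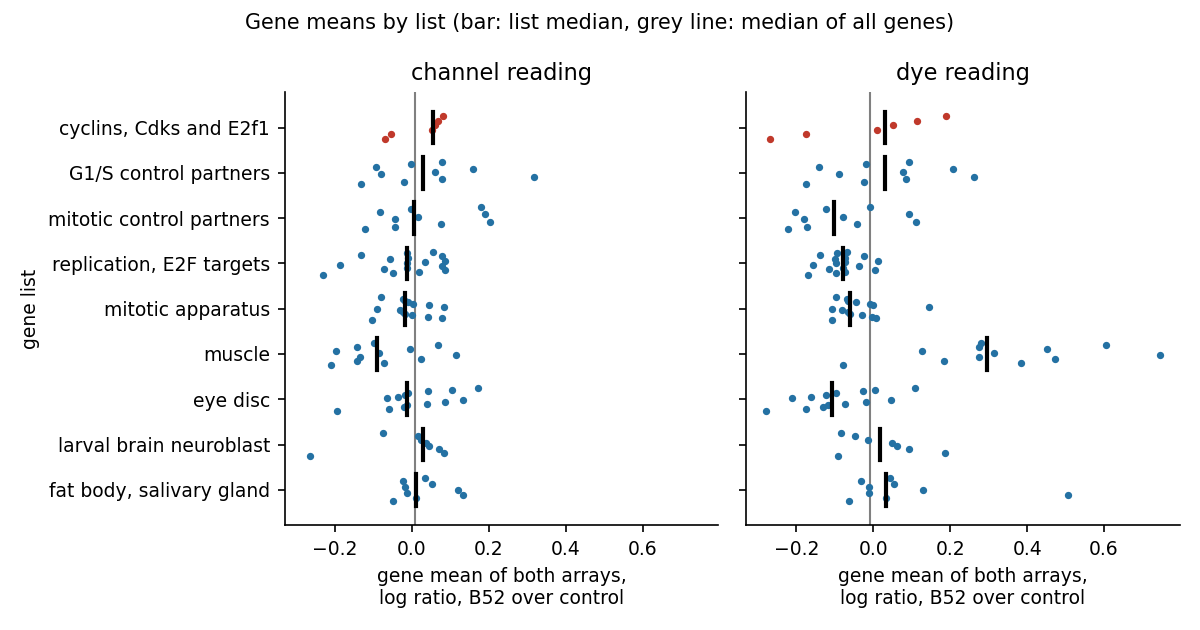
Gene means of both arrays (points, log ratio of B52 over control, base not stated) for the 6 measured members and 8 other gene lists, in the channel reading (left) and the dye reading (right). Black bars are list medians and the grey line is the median of all genes. In the dye reading the replication and mitotic lists lie mostly left of the line and muscle genes mostly right of it, and the members lie on both sides.

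Genes of particular tissues stood beside these values in the dye reading, some lists mostly positive and some mostly negative. Muscle genes were positive on both arrays in 11 of 12 cases and negative in 1 (median 0.297). Limma called 0 of their 15 probes after adjustment, while 10 had an unadjusted p under 0.05, against 6% of all probes. The eye disc genes were negative in 10 of 14 cases and positive in 1 (median -0.108). The neuroblast genes of the larval brain, another dividing tissue, were positive in 3 and negative in 2 of 8 cases (median 0.0178). Fat body and salivary gland genes were positive in 2 and negative in 2 of 9 cases (median 0.0325). Over all genes 21.9% were positive and 25.6% negative, so the fat body and salivary gland counts are near the background. With sub-grid medians subtracted these were 5 positive and 1 negative, and 7 of 14 eye disc genes were negative and 0 positive. Under that step 25.15% of all genes were positive and 25.6% negative. Read by channel, the medians over these 4 lists came to -0.092, -0.0115, 0.0298 and 0.0115, in the same order. There 0 of 12 muscle genes had the same sign on both arrays, and 0 of their 15 probes had an unadjusted limma p under 0.05. The eye disc genes were positive in 2 and negative in 1, and the neuroblast genes in 1 and 2. Fat body and salivary gland genes were positive in 4 and negative in 1, beside 28.1% positive and 24.3% negative over all genes. Fewer cells of a type and less RNA per cell cannot be told apart in these samples, and the part of tissue make-up in the values of E2f1, Cdk2 and the replication genes was not tested.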

How the data were processed

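RNA of B52 and control larvae was compared on 2 two-colour arrays. Per spot and array the authors deposited a single log ratio, and no intensities were used here. How images were analysed and values normalised, and the base and direction of the logarithm, are not stated in the labels. The code -10000 on 5 spots was treated as missing. Unnamed positions shared by all 24 sub-grids (960 spots) were treated as controls and not tested. Probes were named through the platform annotation by gene ID and updated with a RefSeq gene table (12519 of 13147 probes with 1 symbol matched). Of the 8 other lists, 119 of 121 names matched and 95 genes were measured on both arrays. Members were matched by gene ID and not by synonym, since E2f1 and stg share old synonyms with other genes. Probes of 1 gene were averaged per array over probes with a value on both arrays. Sub-grid medians ran from -0.075 to 0.079 on replicate 1 and from -0.139 to 0.168 on replicate 2.

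Each of 12500 probes was fitted in limma 3.58.1 (R 4.3.3, functions lmFit and eBayes) against a ratio of 0, with Benjamini-Hochberg adjustment over all probes and a threshold of 0.05. The procedure was checked on simulated data whose effects were much larger than any member mean. The check does not bear on differences of the size seen here. Tables and plots used Python 3.11.15, numpy 2.4.6, pandas 2.3.3 and matplotlib 3.10.9. Errors given as ± are SDs over 2 arrays. All members are named. From each other list at most 2 genes per direction and reading could be named, ranked by the array on which the gene's value was smaller in size. Alternatives covered centring, scale, sub-grid medians, control spots, averaging of probes, the variance model and single arrays. The members and lists were chosen with earlier results of these data known.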

Additional observations from a re-analysis of the deposited data

How the results depend on the processing

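In both readings 0 of all probes passed, members included, with array medians subtracted, arrays scaled to the same spread, sub-grid medians subtracted, control spots kept, robust variance estimation and an ordinary test of each probe, so this count could not show how stable the members are. In the channel reading the member median was 0.056, and 0.0011 with sub-grid medians subtracted. The number of members whose arrays had equal signs in that reading was then 0, against 2, as CycD and Cdk4 no longer had equal signs. Over all genes 24.68% were then positive and 23.76% negative on both arrays. Cdk4 had been at -0.0015 on replicate 1 before the step. In the dye reading the number was 6 under that step, against 4, with 4 positive and 2 negative. On single arrays the member median lay between 0.0015 and 0.0378 in the channel reading and between -0.0015 and 0.0378 in the dye reading, so its sign in the dye reading rested on replicate 1. Of 30 gene means of members recomputed without leaving out an array, 3 changed sign in the channel reading (CycB, CycD and Cdk4, all with sub-grid medians subtracted) and 0 of 30 in the dye reading. The median over probes could not differ from the mean, as no member had more than 2 probes with values on both arrays. Including probes with a value on 1 array could change only CycE and Cdk4. The sub-grid medians at the CycB, CycD and Cdk4 spots had the same sign on both arrays. Subtracting them thus moved the channel means and partly cancelled in the dye means. The 0 of 30 does not show that the dye means are more stable. Alternatives added after the data were seen gave 11 replication genes negative on both arrays in the dye reading with array medians or with sub-grid medians subtracted, against 12. Under the sub-grid step 1 replication gene was positive on both arrays, against 0, and 4 partners at the start of replication, against 2. That step also gave 5 positive fat body and salivary gland genes, against 2, and 7 negative eye disc genes, against 10. Beside these dye-reading counts, 23.69% of all genes were negative with array medians subtracted. With sub-grid medians subtracted 25.6% of all genes were negative and 25.15% positive. With probes measured on either array the member median by dye was 0.0118. No paired analysis was possible because both samples belong to 1 group and each array already holds both RNAs. Without intensities, signal over background could not be judged.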
